A study of Homo sapiens with 30 samples.

Results

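The sites described here lie in the genes of the proteasome, the protease that degrades ubiquitin-tagged proteins. They were chosen by gene name alone, as the positions of the deposited table that fall in exons of protein-coding genes of GENCODE release 29 (GRCh38) whose symbol starts with PSMA, PSMB, PSMC, PSMD, PSME, PSMF or PSMG and a digit. There were 2177 such sites among 382978 listed sites, and they lay in 44 of the 49 genes with such a symbol. No site was listed in PSMA8, the testis alpha subunit, in PSMB8, PSMB9 or PSMB11, the catalytic subunits of immune and thymic proteasomes, or in PSMD5, an assembly chaperone. One gene, PSMC3IP, matched by symbol but encodes a cofactor of meiotic recombination and no proteasome subunit. It held 50 of the sites, which left 2127 without it.

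The samples are HEK 293T cells, derived from human embryonic kidney, that were given RNA-editing enzymes, and off-target A-to-G changes were read from their mRNA. In the 16 libraries called MCP here, the deaminase domain (DD) of human ADAR1 or ADAR2 was fused to the MS2 coat protein, which binds MS2 hairpins in a guide. They cover ADAR1 or ADAR2, the E-to-Q form (E1008Q in ADAR1, E488Q in ADAR2) or the wild-type form, a nuclear localisation (NLS) or nuclear export (NES) signal, and presence or absence of a guide with MS2 hairpins (MS2 adRNA), with 1 library for each of the combinations. A further 4 libraries held full-length ADAR2 or ADAR2 (E488Q) with or without a GluR2 adRNA, and another 2 held Cas13b-ADAR2 DD (E488Q) with or without its gRNA. The controls were cells transfected with GFP, the MS2 adRNA, the GluR2 adRNA or the gRNA, and untransfected cells, whose 3 runs used here are technical repeats of 1 library. Cells were transiently transfected and harvested after 60 h, and nothing in the labels marks a repeated culture of any construct. A p-value from these libraries therefore measures the spread left between different constructs. The value at a site is the share of reads with G in place of A, deposited by the authors for every library without read counts, so its depth is unknown and no interval is given. The shares carry no expression level against which the cell line could be checked.

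The 20S core of the proteasome is a barrel of outer alpha rings, which gate the entrance, and inner beta rings, in which PSMB5, PSMB6 and PSMB7 carry the proteolytic sites. The 19S regulator caps the barrel: its base holds the ATPases PSMC1 to PSMC6, which unfold substrates, and its lid holds the deubiquitinase PSMD14. ADAR enzymes deaminate adenosine in double-stranded RNA to inosine, which is read as guanosine, and the E-to-Q change is known to raise their activity.

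The sites on which the results turn are printed first, as the DNA letters of the gene's strand in GRCh38, with the edited adenosine in capitals. The first group is shown because the mean gain in the share of G over untransfected cells was highest there or because every deaminase library had a call.
PSMB2 3′ UTR, chr1:35602145-35602174, minus strand: gtttttcatagagacAgggtctcaccatgt
PSMB4 L205L, chr1:151401262-151401291, plus strand: gaagcagccagtgctAagccagaccgaggc
PSMD3 Y302C, chr17:39990106-39990135, plus strand: ccatccagctggagtActcagaggcccgga
PSMG3 3′ UTR, chr7:1567636-1567665, minus strand: gacacgtgaacacccAgacacccactcagg
PSMD8 N195S, chr19:38379272-38379301, plus strand: agctcttgggcctcaAcctcctcttcctgc
The second group is shown because the enzyme, its variant or its localisation separated the libraries there.
PSMF1 Y266C, chr20:1165046-1165075, plus strand: tccccccgccgggctAcgatgacatgtacc
PSMB5 K91R, chr14:23033587-23033616, minus strand: cctcccagacggtgaAgaaggtgatagaga
PSMD11 N406S, chr17:32480564-32480593, plus strand: tggaaacaattcagaAcatgagcaaagtag
PSME4 L193L, chr2:53937493-53937522, minus strand: caccgctgagatgctAgaagaatggcgacc
PSMB6 G131G, chr17:4797757-4797786, plus strand: agacctgatggcgggAatcatcatcgcagg
PSMF1 3′ UTR, chr20:1166531-1166560, plus strand: ctgatgcctaggcccAgggtcagtctcaga
PSMC1 T172T, chr14:90264076-90264105, plus strand: ggatcccctggtcacAgtgatgaaggtaga
The last group is shown because the base lies in a codon of a catalytic motif, an ATP-binding motif or a stop.
PSMB5 T61A, chr14:23034687-23034716, minus strand: atgcttcatggaacaAccaccctggccttc
PSMC4 K212R, chr19:39974775-39974804, plus strand: cacctggctgtgggaAgaccatgttggcaa
PSMD13 *377W, chr11:252584-252613, plus strand: atgacatcctcacctAgggccccctggttc

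A change such as Y302C gives the encoded residue, its number in the annotated transcript of that gene, and the residue after A is read as G, while L205L leaves the protein as it was and * is a stop codon. Of the 2177 sites, 1716 were coding (78.8%), 375 lay in 3′ UTRs (17.2%) and 83 in 5′ UTRs (3.81%). The coding share was 65.7% over all listed sites in exons of coding genes, and 29.3% of those lay in 3′ UTRs. Of the 1715 coding sites with an adenosine on the gene's strand, 1223 (71.3%) changed the amino acid and 484 (28.2%) were synonymous, against 26.1% synonymous over the listed coding sites. The most frequent change was lysine to arginine, at 249 sites (14.5%, against 14.9% of the listed coding sites). Tyrosine to cysteine followed at 132 (7.70%, against 6.07%) and glutamine to arginine at 127 (7.41%, against 9.53%). The base after the edited adenosine was G at 52.8% of the proteasome sites, against 58.8% of the listed sites and 27.8% of all adenosines in the proteasome transcripts. At 200 sites an exon of another gene overlapped, 39 of them in PSMA2 and 31 in PSMA6, and which gene those reads came from was not tested.

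Every one of the 2177 sites was called in at least 1 of the 22 deaminase libraries, where a call means an adjusted p under 0.01 in the authors' deposited table and a share above the untransfected mean. The test behind that p is not given in the sources used here. The listing itself may require a call in some library, so that count is not read as a result about these sites. None of the 2177 was called in a transfected control, where 0.00157% to 0.00601% of all listed sites were called. Calls per library ranged widely, with a median of 272.5 sites. Among the ADAR2 fusions, MCP-ADAR2 DD (E488Q)-NLS called 285 sites with the guide (13.1%, against 9.94% of all listed sites) and 192 without (8.82%, against 7.32%), and MCP-ADAR2 DD (E488Q)-NES called 296 with (13.6%, against 11.2%) and 260 without (11.9%, against 9.21%). The wild-type MCP-ADAR2 DD-NLS had the lowest counts, 34 sites with the guide (1.56%, against 1.24%) and 30 without (1.38%, against 0.982%). MCP-ADAR2 DD-NES had 130 with (5.97%, against 5.29%) and 66 without (3.03%, against 2.48%).

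The ADAR1 fusions called more. MCP-ADAR1 DD (E1008Q)-NLS had 709 sites with the guide (32.6%, against 28.9% of the listed sites) and 527 without (24.2%, against 23.5%). MCP-ADAR1 DD (E1008Q)-NES had the highest counts of the 22 libraries, 1121 with the guide (51.5%, against 51.1%) and 1318 without (60.5%, against 59.2%). MCP-ADAR1 DD-NLS had 203 with (9.32%, against 7.45%) and 149 without (6.84%, against 5.35%). MCP-ADAR1 DD-NES had 684 with (31.4%, against 26.4%) and 756 without (34.7%, against 30.3%).

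Outside the MCP libraries, full-length ADAR2 (E488Q) called 716 sites with the GluR2 adRNA (32.9%, against 32.7% of the listed sites) and 147 without (6.75%, against 6.72%). Full-length wild-type ADAR2 called 116 with (5.33%, against 4.85%) and 55 without (2.53%, against 1.5%). Cas13b-ADAR2 DD (E488Q) ran the other way, with 353 sites with the gRNA (16.2%, against 12.9%) and 740 without (34.0%, against 29.5%). In each library the proteasome share was close to, and in all 22 above, that of the whole table.

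**Figure D1:**
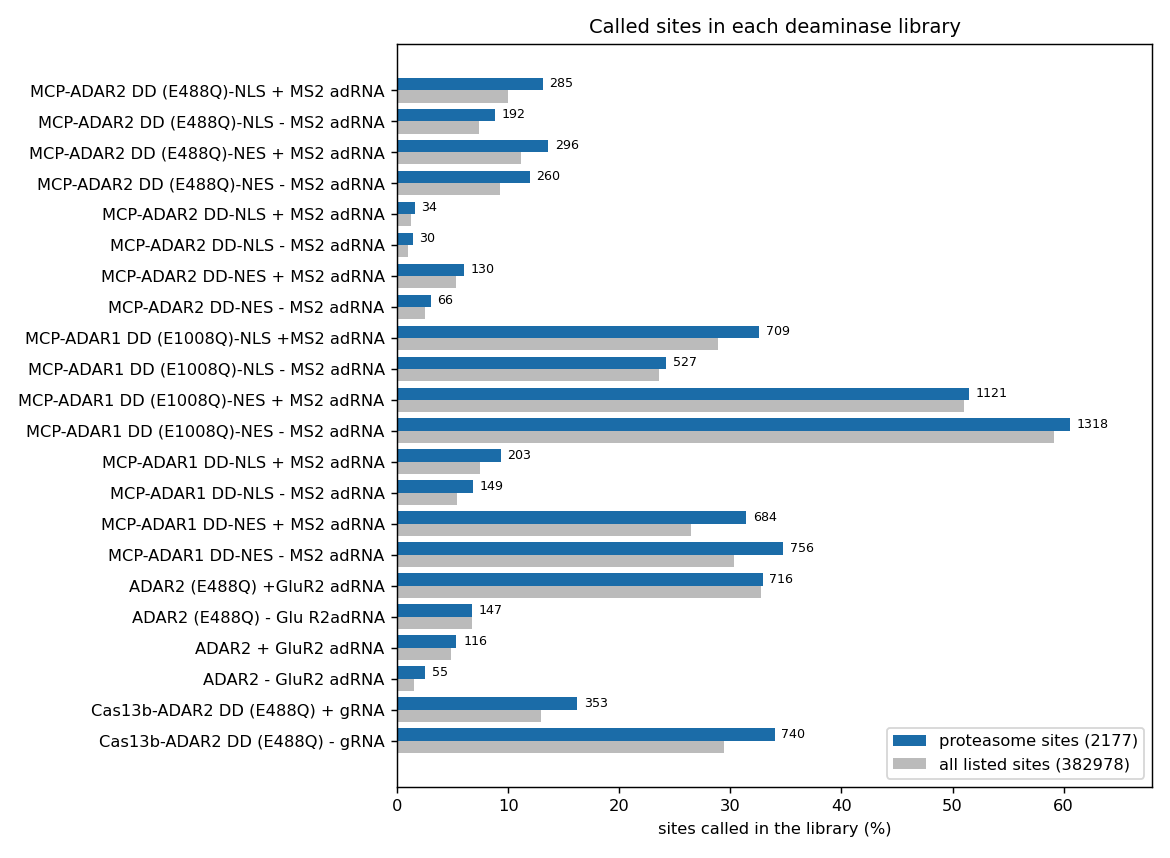
Percentage of sites called in each of the 22 deaminase libraries, for the 2177 proteasome sites and for all 382978 listed sites. The proteasome percentages run between 1.38% for MCP-ADAR2 DD-NLS without its guide and 60.5% for MCP-ADAR1 DD (E1008Q)-NES without its guide, and follow those of the whole table.

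The mean share of G over the 2177 sites was between 0.878% and 7.69% in the deaminase libraries (median 2.23%), between 0.398% and 0.447% in the 4 transfected controls, and between 0.352% and 0.389% in the untransfected runs. Over all listed sites the deaminase libraries ran between 0.938% and 11.4%. The proteasome sites thus carried smaller gains than the table at large: the median gain over the untransfected mean, averaged over the 22 libraries for each site, was 1.39 percentage points, against 2.6 points over all listed sites. A gain of at least 10 points was found at 107 sites (4.92%), against 8.63% of the listed sites. Depth is unknown, so the part of read coverage in which sites were listed, and so in these gains, was not tested.

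The proteasome genes differed in how densely they were listed. Listed coding sites per 1000 coding adenosines had a median of 135.5 over the 44 genes (range 18.4 to 352.9), against a median of 48.7 over 8466 coding genes with a listed coding site (quartiles 17.4 and 117.3). A gene is listed only where reads cover it, and expression could not be read from the shares, so the part of expression in this density was not tested. The density was highest in the beta ring, with PSMB4 at 352.9, PSMB1 at 312.5, PSMB5 at 257.3 and PSMB3 at 229.2. In the lid, PSMD8 had 316.7 and PSMD3, a scaffold subunit, 268.0 sites per 1000 coding adenosines, while PSMD12, also a lid scaffold, had 30.4. The alpha subunit PSMA7 had 310.7. Among the activators, PSME1, the PA28 alpha subunit, had 18.4 and PSME4, the PA200 activator, 29.2. The assembly chaperones varied, with PSMG3 at 192.3, PSMD10 at 142.9 and PSMG2 at 35.4. Pooled over the genes of a role, those with no listed site included, the density was 238.6 in the constitutive beta ring, 147.1 in the lid, 141.4 in the alpha ring, 131.1 in the ATPases and 37.4 in the activators.

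**Figure D2:**
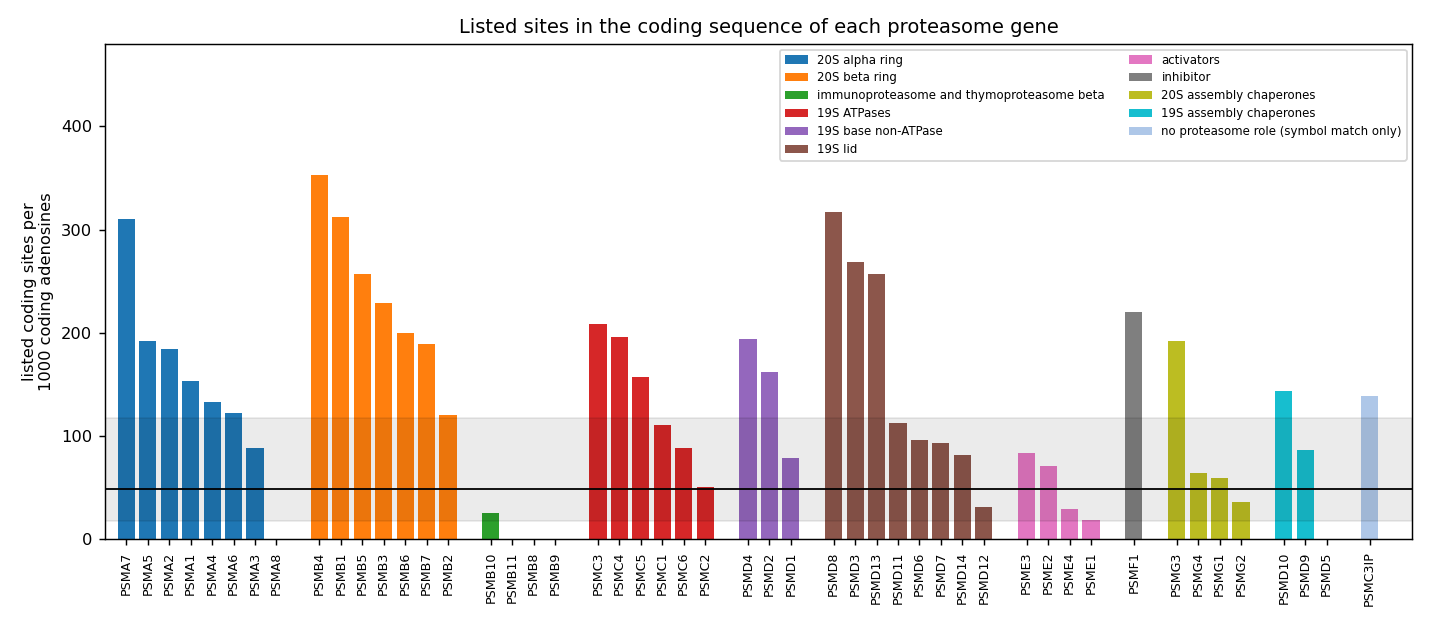
Listed coding sites per 1000 coding adenosines, one bar for each gene, coloured by role, with the median of all coding genes as a line and their quartiles as a band. The bars run between 18.4 for PSME1 and 352.9 for PSMB4, and 25 of the 44 genes with sites lie above the upper quartile of 117.3.

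In the alpha ring, whose subunits form the gate, the highest mean gain was at V114V of PSMA2 (20.0 ± 13.7 points, SD over the 22 libraries, called in 19), which an exon of another gene overlaps. A 3′ UTR site of PSMA4 gained 16.0 ± 14.4 points and was called in 18. The synonymous Q148Q of PSMA3 gained 14.7 ± 16.0 points and was called in 13 libraries, and L48L of PSMA5 gained 6.90 ± 5.65 points. In the beta ring, the catalytic subunit PSMB6 had T176A at 21.4 ± 14.2 points (called in 18 libraries), PSMB5 had Y99C at 16.0 ± 11.0 (called in 19) and PSMB7 had V146V at 15.7 ± 15.7 (called in 15). Of the non-catalytic beta subunits, PSMB2 reached 33.9 ± 18.2 points in its 3′ UTR, PSMB4 26.9 ± 13.8 at L205L, PSMB1 9.14 ± 9.06 points at N185S and PSMB3 6.12 ± 8.54 at K192R. The immunoproteasome subunit PSMB10 had only 4 listed sites, at most 3.04 ± 4.87 points, and an exon of another gene overlaps all 4.

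In the ATPase ring the highest gains were those of PSMC1 T172T (27.2 ± 17.9 points, called in 18 libraries), PSMC4 E77G (24.7 ± 15.1, called in 21) and PSMC6 S215G (18.9 ± 11.5, called in 18). PSMC2, another ATPase, stayed at 3.95 ± 4.89 points at its highest site, N231D. Among the scaffold subunits of the base, PSMD2 S783G gained 27.3 ± 14.9 points and was called in 21 libraries, and PSMD1 L626L gained 19.9 ± 14.3. The ubiquitin receptor PSMD4 had Q27R at 12.6 ± 14.4 points. In the lid, PSMD8 held Y174C (26.3 ± 16.1 points, called in 19 libraries) and K218R (22.2 ± 14.6, called in 21), and the deubiquitinase PSMD14 had M75V at 14.4 ± 13.5. PSMF1, known as an inhibitor of the 20S core, had Y266C at 19.5 ± 16.2 points, and PSME4 had L193L at 25.5 ± 18.6, called in 10 libraries.

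Only 7 of the 2177 sites (0.322%, against 0.13% of the listed sites) were called in all 22 deaminase libraries. They lay in 4 genes: PSMB4 (L205L and Q47R), PSMD3 (Y302C, T239A and H319R), PSMD8 (N195S) and the assembly chaperone PSMG3 (a 3′ UTR site). PSMB4 L205L had 5.70% as its lowest, 28.5% as its median and 51.3% as its highest share in the deaminase libraries, and 0.232% at most in a control. At PSMD3 Y302C the shares were 6.06%, 23.8% and 54.9% in the deaminase libraries, and 0.831% at most in a control. The PSMG3 site had 6.78%, 21.7% and 51.4% in the deaminase libraries, and 0.93% at most in a control. At each of the 7 sites the lowest deaminase library lay above the highest control, which the rule for a call favours. In total, 162 sites (7.44%, against 6.63%) were called in at least 11 libraries, the 7 included, and 688 (31.6%, against 36.5%) in exactly 1.

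**Figure D3:**
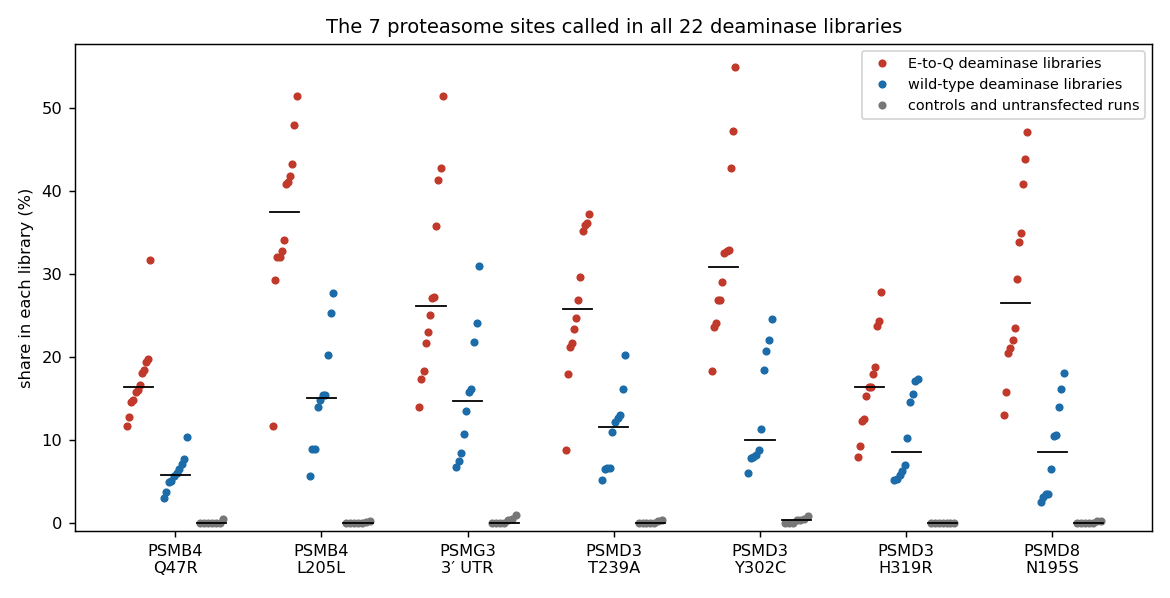
Share of G in each library at the 7 sites called in all 22 deaminase libraries, on a linear percent axis, with the E-to-Q deaminase libraries, the wild-type ones and the controls in their own columns and a line at the median of each. At PSMB4 L205L the deaminase libraries lie between 5.70% and 51.3%, and no control exceeds 0.93% at any of the 7 sites.

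Several listed sites fell in codons of known motifs. The threonine that starts the mature PSMB5 protein and acts as its nucleophile is residue 60 of the annotated sequence, and no listed site changed it. The neighbouring T61A gained 1.39 ± 1.76 points and was called in 5 libraries, with shares of 4.65% in Cas13b-ADAR2 DD (E488Q) with its gRNA and 6.65% without. In PSMC4 the lysine of the ATP-binding Walker A motif, residue 212, carried K212R, which gained 6.09 ± 4.45 points and was called in 10 libraries, and K212E, which gained 2.06 ± 2.70 points and was called in 3. The Walker A lysine of PSMC5 carried K196R, at 1.06 ± 1.77 points. No site was listed in the Gly-Thr-Thr codons at the mature start of PSMB6 or PSMB7, or in the metal-binding motif of PSMD14. At K212R the E-to-Q libraries of the MCP set had 4.05% at the lowest, 11.1% at the median and 15.3% at the highest, against 0.362%, 3.52% and 6.59% in the wild-type libraries. The groups overlapped, and their means of 10.1% and 3.56% differed past the threshold (limma adjusted p = 0.0016).

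The C-terminal tails of some ATPases dock into pockets of the alpha ring. In PSMC3 that tail carried Y438C, at 2.2 ± 3.27 points, and Y437C, at 0.495 points. Read-through of a stop was listed at 5 sites (0.292%, against 0.344% of the listed coding sites) and loss of a start at 3 (0.175%, against 0.110%). The highest read-through gain was that of PSMD13 *377W, at 5.10 ± 3.77 points, called in 9 libraries, followed by PSME4 *1844W at 4.58 ± 7.89. Loss of the start codon of PSMB1, M1V, gained 1.09 ± 1.85 points.

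Full-length ADAR2 stood apart from the other constructs in a pair of 3′ UTRs. PSMB2, a beta ring subunit, had 77 listed 3′ UTR sites within 2429 bases of chromosome 1 (35600808 to 35603236), and PSMD12 had 24 within 2234 bases of chromosome 17 (67338488 to 67340721). Mean shares over the PSMB2 3′ UTR were 34.6%, 23.9%, 24.5% and 23.4% in the full-length libraries, which are ADAR2 (E488Q) with and without the GluR2 adRNA and then ADAR2 with and without it. They averaged 8.90 ± 1.01% in the MCP-ADAR2 libraries and 10.1 ± 1.62% in the MCP-ADAR1 libraries (SD, n = 8 each), 10.2% and 11.4% in Cas13b-ADAR2 DD (E488Q) with and without its gRNA, 6.36 ± 0.642% in the transfected controls (SD, n = 4) and 5.32% in the untransfected library. The lowest full-length library lay above the highest of all others, and without the guide E488Q and the wild-type form were within 1 point of each other.

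Over the PSMD12 3′ UTR the same 4 full-length libraries had mean shares of 39.7%, 24.3%, 29.4% and 26.8%. The MCP-ADAR2 libraries averaged 6.83 ± 0.884%, the MCP-ADAR1 libraries 8.56 ± 1.53%, the transfected controls 6.43 ± 0.657% and the untransfected library 4.10%. The coding sites of the same genes did not share this pattern: over the 19 coding sites of PSMB2 the mean share was 1.66 ± 2.27% in the full-length libraries (SD, n = 4), 0.794 ± 0.496% in MCP-ADAR2 and 3.70 ± 1.77% in MCP-ADAR1. Nor did the 274 3′ UTR sites of the other proteasome genes, with 2.64 ± 2.61% in the full-length libraries, 1.56 ± 0.733% in MCP-ADAR2 and 5.85 ± 2.85% in MCP-ADAR1. These sets were compared after their values were seen, so their differences are described without a test.

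At single sites in the PSMB2 3′ UTR, G was the more frequent base in the full-length libraries. At the PSMB2 3′ UTR site printed above, the full-length libraries had 76.7%, 70.8%, 93.5% and 92.8%, in the same order, the MCP libraries had 28.8% at the lowest, 44.0% at the median and 55.1% at the highest, and the untransfected runs had 21.2%, 16.7% and 11.8%. G was present there in cells without an added enzyme, and the full-length libraries lay above every other library. The site was called in 16 libraries. A further site, PSMB2 at chr1:35602151, had 68.4%, 60.3%, 77.8% and 82.1% in the full-length libraries and 1.21% in the untransfected library. The share was higher still at chr1:35602216, with a mean of 95.0% in the full-length libraries, but it was already 74.6% in the untransfected library.

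These UTRs took a share of the full-length calls that was largest where calls were fewest. For ADAR2 (E488Q), 22.9% of the called sites lay in 3′ UTRs with the GluR2 adRNA (against 34.4% over the listed sites called) and 41.5% without (against 38.5%). For wild-type ADAR2 it was 47.4% with the adRNA (against 36.1%) and 40 of 55, or 72.7%, without (against 48.4%). The 3′ UTRs of PSMB2 and PSMD12 alone gave 9.64% of the called sites for ADAR2 (E488Q) with the adRNA and 29.9% without, and 38.8% for wild-type ADAR2 with it and 67.3% without. In the MCP libraries 3′ UTR sites were 5.88% to 18.2% of the called sites, against 19.1% to 30.1% over the listed sites called in the same libraries.

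Both UTRs also hold stretches that could pair with each other. A word of 14 bases whose reverse complement stands elsewhere in the same 3′ UTR covered 167 of 2927 bases in PSMD12 and 66 of 1683 bases in PSMB2. Of the proteasome 3′ UTRs of at least 100 bases, 3 of 32 held such a word, PSMF1 being the other, against 855 of 6331 coding-gene 3′ UTRs (13.5%). Of the 24 PSMD12 sites, 5 lay inside one (20.8%, against 5.71% of the bases). Of the 76 PSMB2 sites on the searched transcript, 10 did (13.2%, against 3.92% of the bases). The bases are counted whether adenosine or not, so these percentages are not alike. The median gain inside the words was 4.19 points in PSMD12, against 4.10 over its 24 3′ UTR sites. In PSMB2 it was 7.26 points, against 5.31 over its 77 3′ UTR sites. This search was chosen after the values were seen, repeats were not annotated, and the part of pairing in the shares was not tested.

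**Figure D4:**
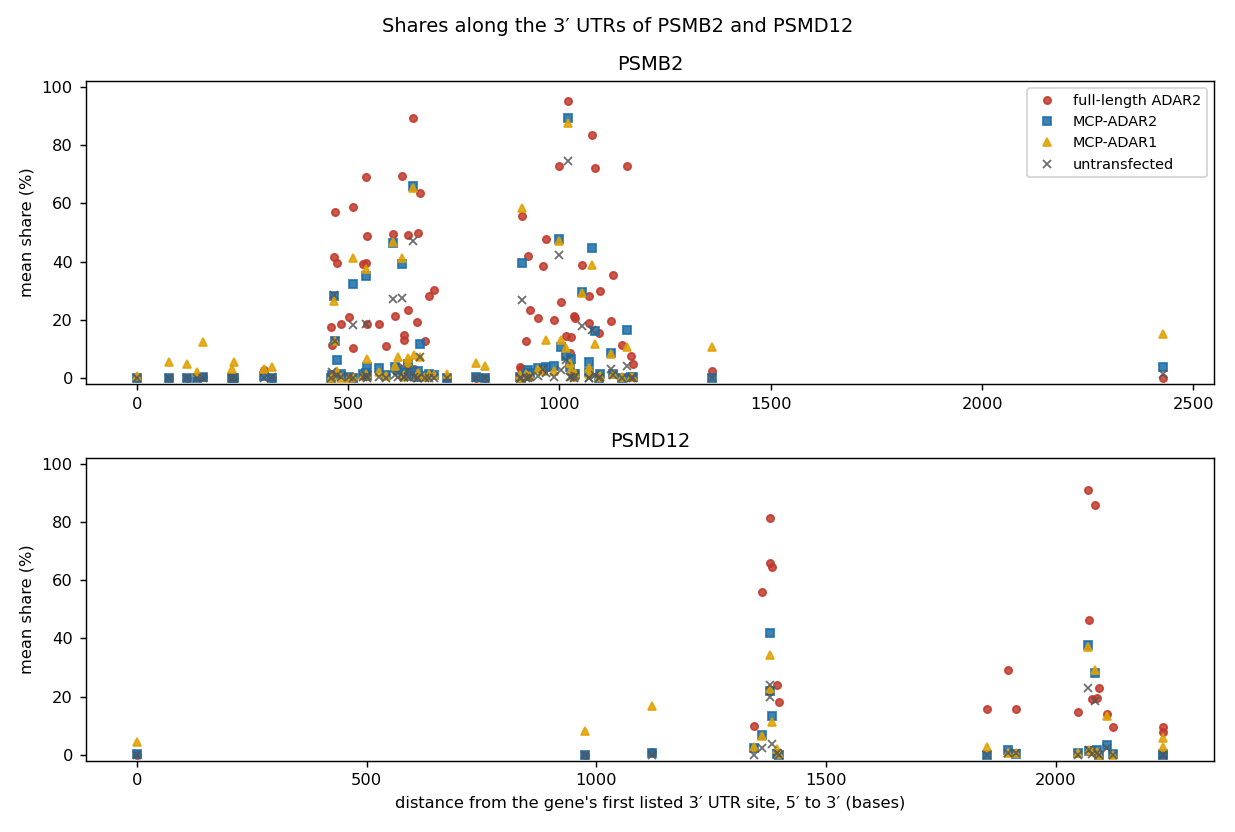
Mean share of G (percent) at each listed 3′ UTR site of PSMB2 (77 sites) and PSMD12 (24 sites), against the distance in bases from the first listed site, 5′ to 3′, for full-length ADAR2 (4 libraries), MCP-ADAR2 and MCP-ADAR1 (8 each) and the untransfected runs. The full-length points stand highest at most sites of the clusters within each UTR, and the untransfected library is well above 0 at some of the same positions.

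Of the 34 sites where an untransfected or transfected control passed 5%, 22 were in the PSMB2 3′ UTR and 9 in that of PSMD12. The highest control share, 94.9%, was at chr11:244171 in the coding sequence of PSMD13. The reference base on the gene's strand is T there, so the rule for naming a change does not apply. Whether such shares come from editing by the cell's own enzymes or from a genomic variant was not tested.

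The effects of the variant, the localisation, the guide and the enzyme were estimated over the 16 MCP libraries with limma on the arcsine square root of the share, fitted and adjusted over all listed sites. Each factor was set over 8 pairs of libraries that differ in that factor alone. The residual holds 11 degrees of freedom and any interaction between factors. Of the 2177 sites, 1709 were called with an MCP-ADAR1 construct and 398 with an MCP-ADAR2 construct. MCP-ADAR1 DD (E1008Q)-NES without its guide alone called 1318. If the listing requires a call, many sites are listed through the libraries where their shares are high. The directions below may thus be partly set by the listing, in the whole table too, and that part was not tested.

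The E-to-Q form edited the listed proteasome sites more than the wild-type form. Shares were higher in E-to-Q libraries at 844 sites (38.8%, against 39.7% of all listed sites), which lay in all 44 genes, and lower at 25 sites (1.15%, against 0.72%) in 18 genes. The mean share over the 2177 sites was higher in the E-to-Q library in 8 of 8 pairs, by 1.94 ± 1.01 points (SD, n = 8), with ratios between 1.53 and 2.61. Over all listed sites the ratios lay between 1.66 and 3.30. In 42 of the 44 genes the gene mean was higher in 8 of 8 pairs, the exceptions being PSMC2 with 6 and the alpha ring chaperone PSMG1 with 7. That count was not made for other genes. The largest difference in gene means was in PSME1, at 11.3% in the E-to-Q libraries and 4.76% in wild-type ones over its 5 listed sites.

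The E-to-Q calls were spread over the roles. They took in 37 of the 74 sites of PSMF1 (50%), 107 of 249 in the non-ATPase base (43.0%), 125 of 304 in the ATPases (41.1%), 205 of 505 in the lid (40.6%), 142 of 388 in the beta ring (36.6%), 98 of 320 in the alpha ring (30.6%) and 20 of 71 in the chaperones of 20S assembly (28.2%). The activators had 56 of 148 (37.8%) and the chaperones of 19S assembly 24 of 64 (37.5%). In the beta ring, PSMB2 held 98 of the sites, mostly in its 3′ UTR, and only 22 of the calls. The E-to-Q calls covered 41.4% of the coding sites (42.5% of the listed coding sites) and 26.4% of the 3′ UTR sites (34.0% of the listed).

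PSMF1 Y266C had the largest coding difference. Its shares were 18.4% at the lowest, 28.0% at the median and 60.3% at the highest in E-to-Q libraries, against 2.02%, 8.51% and 18.3% in wild-type libraries, and the groups just missed each other. The mean difference was 23.5 ± 11.2 points (SD over 8 pairs, limma adjusted p = 3.5e-05). PSMB4 L205L had 29.3%, 33.4% and 51.3% in E-to-Q libraries, against 8.91%, 15.2% and 27.7% in wild-type libraries, again without overlap, and differed by 20.6 ± 4.25 points (limma adjusted p = 1.6e-05). PSMD8 N195S had 15.7%, 29.2% and 47.0% in E-to-Q libraries and 2.54%, 8.54% and 18.0% in wild-type libraries. Here the groups overlapped, and the paired difference was 21.8 ± 6.76 points (limma adjusted p = 7.4e-06). PSMB6 T176A averaged 34.4% in the E-to-Q libraries and 13.0% in wild-type ones, a difference of 21.4 ± 4.99 points without overlap (limma adjusted p = 3e-05).

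The 25 sites that were lower with the E-to-Q form included bases in the catalytic subunit PSMB5, in the ATPase PSMC3 and in the lid subunit PSMD13. PSMB5 K91R had 0.67% at the lowest, 3.13% at the median and 6.08% at the highest in E-to-Q libraries, against 4.39%, 10.3% and 16.8% in wild-type libraries. The groups overlapped slightly, and the difference was -7.49 ± 3.62 points (limma adjusted p = 0.00015). PSMC3 K397R, in an ATPase, averaged 1.80% in the E-to-Q libraries and 5.59% in wild-type ones (limma adjusted p = 0.0046). PSMD13 Q257R averaged 2.11% in the E-to-Q libraries and 8.48% in wild-type ones without overlap (limma adjusted p = 0.00065).

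The base after the adenosine differed between these lists, as the printed sequences show for PSMB5 K91R, where it is G, and for PSMF1 Y266C and PSMD8 N195S, where it is C. It was G at 76% of the 25 sites lower with E-to-Q and at 43.1% of those higher, against 66.4% and 51.0% over the listed sites called the same way. The 25 fell to 15 when either wild-type MCP-ADAR1 DD-NES library was left out, to 16 without MCP-ADAR1 DD (E1008Q)-NES with its guide, and to 13 with untransformed shares. The 844 fell to 238 in the 8 NES libraries alone and 267 in the 8 NLS libraries alone, which hold fewer samples.

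**Figure D5:**
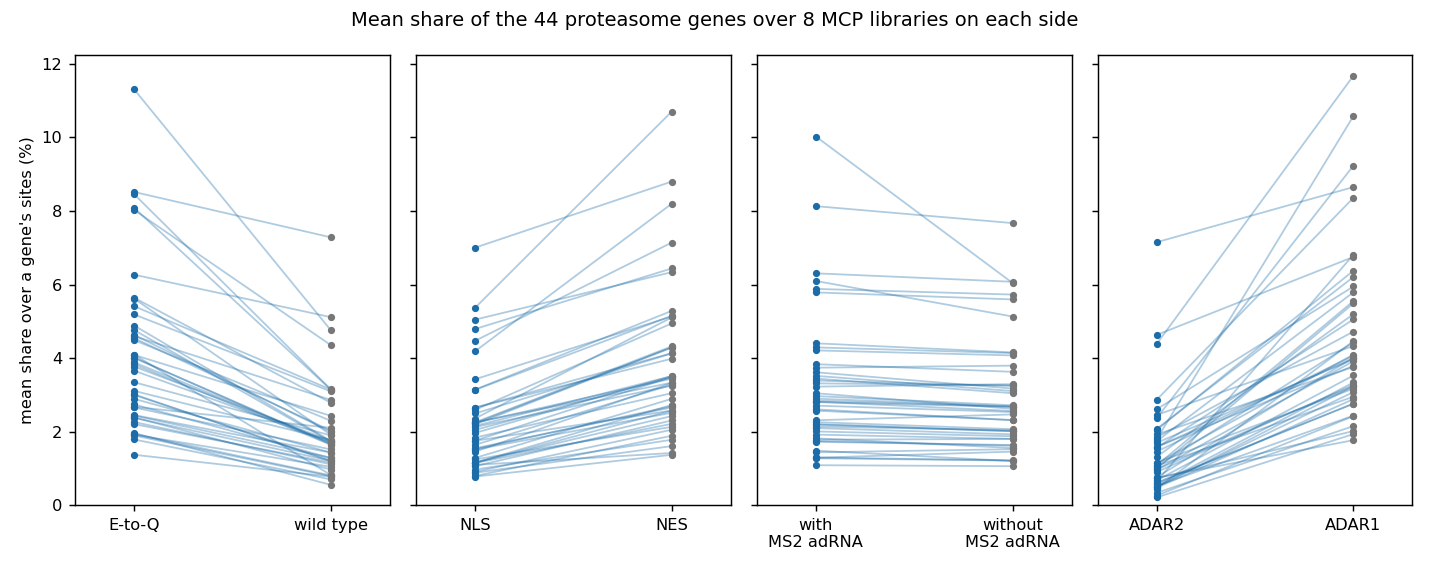
Mean share of G (percent) over the listed sites of each of the 44 genes, averaged over the 8 MCP libraries on each side of a factor, with a line joining the points of a gene. In the panel of E-to-Q and wild type the gene differences run between 0.573 and 6.54 points, in that of ADAR2 and ADAR1 all 44 lines are lower on the ADAR2 side, and in that of the guide they run between -0.166 and 3.98 points.

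The ADAR2 domain edited most of the listed proteasome sites less than the ADAR1 domain, in a list that may itself depend on calls. Shares were lower in MCP-ADAR2 than in MCP-ADAR1 libraries at 1444 sites (66.3%, against 66% of the listed sites) in all 44 genes, and higher at 67 sites (3.08%, against 2.6%) in 25 genes. The mean share over all sites was lower with ADAR2 in 8 of 8 pairs, with a mean difference of -2.90 ± 1.61 points (SD, n = 8), and ratios lay between 0.251 and 0.522. Over all listed sites the ratios lay between 0.197 and 0.437. In each of the 44 genes the mean was lower in 8 of 8 pairs, a count not made for other genes. PSME4 had the largest difference in gene means, at 1.80% with ADAR2 and 10.6% with ADAR1, and PSMG2 was at 0.656% with ADAR2 and 6.81% with ADAR1. By role, the lower calls took in 232 of 320 alpha ring sites (72.5%), 217 of 304 ATPase sites (71.4%), 106 of 148 activator sites (71.6%) and 210 of 388 beta ring sites (54.1%). They took in 48 of 64 sites in the chaperones of 19S assembly (75%) and 53 of 71 in those of 20S assembly (74.6%). The lid had 329 of 505 (65.1%) and the non-ATPase base 159 of 249 (63.9%). In the beta ring, PSMB2 held 98 of the sites, mostly in its 3′ UTR, and only 32 of the lower calls.

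At some sites the ADAR2 domain left almost no G. PSMD11 N406S, in a lid subunit, had 0% at the lowest, 0.195% at the median and 1.44% at the highest with ADAR2, against 9.95%, 25.3% and 53.2% with ADAR1. The groups were far apart, the difference was -28.0 ± 15.4 points (limma adjusted p = 3.3e-06), and the 4 full-length ADAR2 libraries were listed at 0. PSMC1 E113E averaged 1.42% with ADAR2 and 27.2% with ADAR1 (limma adjusted p = 2.4e-06), without overlap. PSME4 L193L had 4.35%, 12.9% and 24.6% with ADAR2, against 16.4%, 47.7% and 60.7% with ADAR1. Those groups overlapped, with a difference of -30.9 ± 12.5 points (limma adjusted p = 1.2e-05).

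The reverse held at the 67 sites. PSMB6 G131G had 6.33% at the lowest, 13.6% at the median and 31.6% at the highest with ADAR2, against 0%, 1.24% and 5.02% with ADAR1, without overlap. The difference was 13.4 ± 6.64 points (limma adjusted p = 8.2e-06), while full-length ADAR2 stayed between 0.297% and 0.639%. The PSMF1 3′ UTR site had 11.1%, 19.9% and 26.0% with ADAR2 and 0%, 2.6% and 6.38% with ADAR1. It was without overlap too, and differed by 15.1 ± 6.08 points (limma adjusted p = 4.5e-05). PSMC4 E77G averaged 29.6% with ADAR2 and 19.0% with ADAR1 over groups that overlapped (limma adjusted p = 0.002).

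The base before the adenosine differed between the lists: it was A at 11.9% of the sites higher with ADAR2 and at 40.1% of those lower, and C at 43.3% and 24.0%. Over the listed sites it was A at 22.6% and 39.2%, and C at 41.6% and 26.8%. In the printed sequences it is A in PSMD11 N406S, G in PSMB6 G131G and C in the PSMF1 3′ UTR. Of 398 sites called with any MCP-ADAR2 construct, 343 were also called with an MCP-ADAR1 construct, which is 86.2% of the ADAR2 sites and 20.1% of the 1709 ADAR1 sites, against 86.5% and 17.4% over the listed sites. Within the 8 NLS libraries alone the 1444 lower sites came to 366 and the 67 higher to 18, and within the 8 NES libraries the higher came to 40.

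The NLS constructs edited the listed proteasome sites less than the NES constructs on average, but few sites passed the test. Shares were lower in NLS libraries at 59 sites (2.71%, against 3.76% of the listed sites) in 27 genes, and higher at 1 site (0.0459%, against 0.0397%), in PSMC3IP. The mean over the sites was lower in the NLS library in 8 of 8 pairs, with a mean difference of -1.48 ± 1.35 points (SD, n = 8) and ratios between 0.399 and 0.979. Over all listed sites the ratios lay between 0.371 and 0.942. In 16 of 44 genes the mean was lower in 8 of 8 pairs, a count not made for other genes. Among the sites called lower in NLS libraries, with the same sign in 8 of 8 pairs, the largest difference was at PSMC1 T172T. Its shares were 13.1% at the lowest, 27.3% at the median and 40.1% at the highest in NLS libraries, against 29.7%, 44.5% and 61.5% in NES libraries. The groups overlapped, and the difference was -16.2 ± 6.14 points (limma adjusted p = 0.021). PSME4 R1410G averaged 6.58% in NLS and 18.6% in NES libraries (limma adjusted p = 0.021).

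The 1 site higher in NLS libraries, E113G of PSMC3IP, had 5.13%, 24.6% and 47.8% in NLS libraries and 0.893%, 2.23% and 4.96% in NES libraries (limma adjusted p = 0.021). There the groups did not overlap. The localisation count was the least stable: it was 0 with untransformed shares, 115 without an intensity trend, 111 with the interaction of enzyme and variant in the fit, and between 9 and 17 when any 1 of the 8 MCP-ADAR1 libraries was left out. It was 13 without MCP-ADAR2 DD-NES with its guide, 31 without MCP-ADAR2 DD-NLS with its guide, 91 without the MCP-ADAR2 DD-NLS library that lacks the guide and 89 without the MCP-ADAR2 DD (E488Q)-NES library that lacks it.

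No proteasome site passed the threshold between libraries with and without the MS2 adRNA (limma, 0 sites in either direction, against 0.000783% of the listed sites over both directions). At an unadjusted p under 0.05 there were 49 sites (2.25%), against 3.05% of the listed sites. The mean over the sites differed by 0.214 ± 0.477 points with the guide, higher in 5 of 8 pairs. For wild type and E-to-Q in turn, its ratio was 0.948 and 0.929 in ADAR1 NES fusions and 1.24 and 1.25 in ADAR1 NLS fusions. In ADAR2 fusions it was 1.40 and 1.09 with NES and 0.964 and 1.27 with NLS. The main effect averages over these pairs, and an interaction of guide and localisation was not tested. The one gene whose mean was higher with the guide in 8 of 8 pairs was PSMB2, at 8.13% with and 7.67% without.

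The full-length and Cas13b constructs have 1 library for each condition and were not tested here, so their values stand side by side. Full-length ADAR2 (E488Q) had a mean share of 5.39% with the GluR2 adRNA and 2.17% without, and wild-type ADAR2 2.05% with and 1.50% without. Cas13b-ADAR2 DD (E488Q) had 2.90% with its gRNA and 4.69% without. Among its highest coding sites were PSMC4 E77G, at 46.9% with the gRNA and 50.0% without, PSMB4 L205L, at 43.2% with and 41.7% without, and PSMD1 L626L, at 42.1% with and 49.1% without.

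Whether the E-to-Q difference itself depended on the enzyme was tested as an interaction. It was negative, with a smaller E-to-Q difference in ADAR2 than in ADAR1 fusions on the arcsine scale, at 99 sites (4.55%, against 3.44% of the listed sites), and positive at 6 (0.276%, against 0.248%). PSMD9 N169S, in a base chaperone, averaged 0.144 ± 0.287% with ADAR2 E-to-Q and 0.468 ± 0.604% with ADAR2 wild type, and 38.0 ± 4.49% with ADAR1 E-to-Q and 8.48 ± 4.76% with ADAR1 wild type (SD, n = 4 each, limma adjusted p = 0.0067). An exon of another gene overlaps that site.

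Other genes that work with the proteasome were described by the same counts. The list holds further subunits and deubiquitinases, assembly and transcription factors, the ubiquitin genes, ubiquitin activation and ligation, shuttling and unfolding factors, and peptidases that act after the proteasome. One of its 35 symbols, KIAA0368, is the older name of ECPAS, also listed, and the other 34 genes held 3157 listed sites. E-to-Q libraries were higher at 1286 of them (40.7%, against 39.7% of all listed sites) and lower at 24 (0.76%, against 0.72%). ADAR2 libraries were lower at 2089 (66.2%, against 66%) and higher at 105 (3.33%, against 2.6%). NLS libraries were lower at 103 (3.26%, against 3.76%), and the guide gave 0. These shares were close to those of the whole table. HUWE1, a ubiquitin ligase, held 378 sites with 204 higher in E-to-Q libraries, UBA1, the ubiquitin-activating enzyme, 310 with 127, and VCP, the unfolding ATPase, 176 with 59.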

How the data were processed

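RNA from HEK 293T cells (300 ng, poly(A) selected, 100 bp paired reads, per the labels' protocols) gave 30 samples. Per the submitters' processing notes, bcl2fastq 2.18.0.12, STAR 2.6.0c, SAMtools and GRCh38.p12 were used. The authors deposited the fraction of reads with G at each site in each library, printed here as percent, and, for each site and library, an adjusted p-value (its test and reference: not given in the sources used here). One column of the fraction table names no sample and was not used, which leaves untransfected runs 2, 3 and 4, whose mean is the control; run 1 is not analysed here. Whether the libraries were stranded is not given in the sources used here.

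Sites were placed on GENCODE 29 exons. A call was a deposited adjusted p-value under 0.01 with a share above the control mean. Factors were tested with limma 3.58.1 (R 4.3.3, with the data.table package at 1.17.8) on the arcsine square root of the share, with a mean-dependent prior, as main effects over 16 libraries, adjusted by Benjamini-Hochberg over 382978 sites at 0.05, and were tested on simulated data. Tables and figures used Python 3.11.15, numpy 2.4.6, pandas 2.3.3 and matplotlib 3.10.9. The members and gene lists were chosen with earlier results of these data known. Sites were named by rule: the highest mean gain overall and in each gene, and the largest called difference in each direction of each factor. Those differences were taken only among sites with the same sign in 8 of 8 pairs, so that agreement is no further result. Also named were sites called in all 22 libraries, and sites in catalytic, ATP-binding, tail, start or stop codons. The sites named for the interaction and the inverted-word search were added after values were seen. Alternatives covered the transform, the trend, filters, the call threshold, overlapping genes, each library left out (16 fits) and, added after seeing the data, leaving out PSMC3IP. A few sites that the rule names are not reported here.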

Additional observations from a re-analysis of the deposited data

Results flagged for a closer look

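The E-to-Q difference itself differed between the ADAR2 and ADAR1 fusions at 99 proteasome sites in the negative direction and 6 in the positive (limma interaction, adjusted p under 0.05). The estimates below are on the arcsine square root scale, with mean shares over 4 libraries each, and the sites were chosen after their values were seen. At the synonymous PSME4 E535E the estimate was -0.3458 (limma adjusted p = 0.0055): both ADAR2 groups were listed at 0, and the ADAR1 groups averaged 14.2 ± 6.52% for E-to-Q and 0.472 ± 0.943% for wild type. At PSMD9 N169S it was -0.4062, with the values given above. At a 5′ UTR site of PSMA1 (chr11:14519942) it was -0.4422 (limma adjusted p = 0.025), with 0.962% for ADAR2 E-to-Q and 0.735% for ADAR2 wild type, and 40.9% for ADAR1 E-to-Q and 8.16% for ADAR1 wild type. At a 3′ UTR site of PSMD11 (chr17:32481415) it was -0.4003 (limma adjusted p = 0.012), with 14.8 ± 3.92% for ADAR1 E-to-Q and 0.613 ± 0.715% for ADAR1 wild type. At a 3′ UTR site of PSMA6, which another gene overlaps, it was -0.3784 (limma adjusted p = 0.028). One of the named sites was positive, PSMA1 at chr11:14520261, at 0.3527 (limma adjusted p = 0.041), with 4.44 ± 1.65% for ADAR2 E-to-Q, 0 for ADAR2 wild type, 1.14% for ADAR1 E-to-Q and 5.40% for ADAR1 wild type.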

How the results depend on the processing

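Each construct has 1 library, depth is unknown, and residuals hold interactions, so small differences cannot be judged. No paired analysis was possible because each group has 1 library, so replicate numbers give no block; the 8 pairs of a factor match constructs, not cultures. Sites higher with E-to-Q (844) came to 238 in the NES libraries and 267 in the NLS libraries, and 681 to 885 with 1 library left out. Sites lower with E-to-Q (25) came to 13 with untransformed shares, 9 in the NES and 6 in the NLS libraries, and 15 to 29 with 1 library left out. Sites lower with NLS (59) came to 0 with untransformed shares, 115 without the trend, 111 with an interaction term, and 9 to 91 with 1 library left out. Sites higher with NLS (1) came to 0 with untransformed shares, 2 with the interaction term, 0 without PSMC3IP, and 1 to 2 with 1 library left out. Sites higher with ADAR2 (67) came to 40 in the NES and 18 in the NLS libraries, and sites lower with ADAR2 (1444) to 366 in the NLS libraries. The guide gave 0 under each alternative run. With a call at least 5 points above the control, sites called anywhere came to 1448 and the median per library to 170.5. The median of the mean shares, 2.23%, was 2.32% without overlapping sites and 2.15% as a mean of gene means. No direction reversed. Of the named sites, 10 of 12 for the enzyme, 8 of 12 for the variant and 0 of 7 for localisation passed under every alternative. Where a count moved beyond the loss of samples, the cause was not tested.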
